A study of Mus musculus with 3 samples.

Results

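Transcripts of 9 integrin subunits (Itgam, Itgb2, Itgb1, Itga6, Itgav, Itga4, Itgal, Itgb7 and Itga9) were followed across the myeloid cells of 3 mouse brain libraries. The genes were chosen by name, as 9 of the 14221 genes that at least 1 of the 3 count tables lists, and all 9 are listed in all 3 tables. One library came from an MHC class II-deficient mouse, in which CD4 T cells are almost entirely missing (the deficient library), and 2 came from wild-type mice (WT 1 and WT 2). The study asked about the brain's CD4 T cells and what their near absence goes with. Brains were digested with enzymes, leukocytes were enriched on Percoll, and live cells carrying both CD11b and CD45 were sorted before droplet-based 3′ sequencing of single cells with molecular identifiers (UMIs). The WT mice are labelled adult. The sources used here give no age for the deficient mouse, no strains or sexes and no allele behind the deficiency, and that genotype is represented by a single library, so a difference of genotype and a difference of that 1 library cannot be told apart. The labels do not say that the libraries came from separate animals beyond their titles, and p-values measure only the spread between these libraries.

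Integrins are cell-surface receptors made of one alpha and one beta chain, and a chain reaches the surface only with a partner. In leukocytes the beta chain encoded by Itgb2 pairs with the chain of Itgam to form CD11b/CD18, also called complement receptor 3 or Mac-1, and with the chain of Itgal to form LFA-1, which binds ICAM proteins on endothelium. The chain of Itgb1 pairs with those of Itga4 (a receptor for VCAM1 and fibronectin), Itga6 (a laminin receptor), Itga9 (a receptor for tenascin and osteopontin) and Itgav. The chain of Itgav also pairs with those of Itgb3, Itgb5 and Itgb8 and binds RGD motifs, including the one in latent TGF-beta. The chain of Itgb7 pairs with that of Itga4, giving a receptor for MAdCAM1 best known from homing to the gut. CD11b was an antigen of the sort, so the gate, and not the biology of the cells alone, sets that Itgam is found in them.

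In the mm10 build with GENCODE annotation, all 9 are protein-coding genes. Itgam lies at chr7:128062640-128118491 and Itgal at chr7:127296260-127335138, on the same chromosome and the plus strand, and Itgb2 lies at chr10:77530252-77565708. Itga6 at chr2:71745616-71858416, Itga4 at chr2:79255426-79333123 and Itgav at chr2:83724397-83806916 lie on the plus strand of chromosome 2. Itgb1 is at chr8:128685654-128733200, Itga9 at chr9:118606690-118901003 and Itgb7, alone on the minus strand, at chr15:102215995-102231944. RefSeq promoter sequences (GRCm38.p6, 250 bases before to 50 bases after the annotated start) were matched for 6 of the 9 genes. Those of Itgam (chr7:128062390-128062689, plus strand) and Itgav (chr2:83724147-83724446, plus strand) are shown because Itgam encodes the sorting antigen and Itgav is the 1 integrin of the list called between the genotypes in microglia. Those of Itga4 (chr2:79255176-79255475, plus strand) and Itgb7 (chr15:102231886-102232185, minus strand) are shown because their transcripts were found together in classical monocytes. Capitals mark the hexamer GAGGAA on either strand (TTCCTC where it lies on the opposite strand), a purine-rich core bound by the myeloid transcription factor encoded by Spi1.
Itgam: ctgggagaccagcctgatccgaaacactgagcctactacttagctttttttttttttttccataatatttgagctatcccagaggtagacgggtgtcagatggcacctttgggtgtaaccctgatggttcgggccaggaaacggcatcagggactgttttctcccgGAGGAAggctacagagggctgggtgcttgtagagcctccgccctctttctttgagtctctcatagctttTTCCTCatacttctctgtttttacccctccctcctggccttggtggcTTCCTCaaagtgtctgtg
Itgav: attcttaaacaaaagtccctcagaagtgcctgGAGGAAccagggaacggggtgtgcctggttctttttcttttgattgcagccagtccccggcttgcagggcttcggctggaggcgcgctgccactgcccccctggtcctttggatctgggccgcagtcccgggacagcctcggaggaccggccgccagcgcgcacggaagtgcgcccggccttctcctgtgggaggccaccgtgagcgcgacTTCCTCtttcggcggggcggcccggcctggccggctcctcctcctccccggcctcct
Itga4: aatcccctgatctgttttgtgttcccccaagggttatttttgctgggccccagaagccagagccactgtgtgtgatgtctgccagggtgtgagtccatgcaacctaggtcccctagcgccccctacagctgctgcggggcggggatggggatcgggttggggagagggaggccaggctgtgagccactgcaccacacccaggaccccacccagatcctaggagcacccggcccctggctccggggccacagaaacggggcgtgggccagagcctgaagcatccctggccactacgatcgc
Itgb7: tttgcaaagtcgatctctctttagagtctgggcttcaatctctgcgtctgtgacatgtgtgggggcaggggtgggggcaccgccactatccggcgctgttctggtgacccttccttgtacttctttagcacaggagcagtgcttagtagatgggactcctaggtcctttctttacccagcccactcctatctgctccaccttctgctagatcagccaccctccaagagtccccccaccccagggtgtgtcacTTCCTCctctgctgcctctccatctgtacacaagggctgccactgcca
The hexamer began at positions -84, -15 and 33 of Itgam, at -218 and -7 of Itgav and at 3 of Itgb7, counted from the annotated start as 1 and the base before it as -1. It had no match in the window of Itga4. Of the 2 matched promoters not shown, that of Itgb1 held it once, at -9, and that of Itga9 not at all. The Itga9 window, chr9:118711442-118711741, lies inside the gene as placed above. The bases around the Itga9 start given above were therefore not searched. Over all RefSeq promoters of this length, 9289 of 32851 (28.3%) hold it on at least 1 strand, so a match alone sets a promoter little apart, and it is a description of letters and not of binding.

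The deficient library held 6616662 UMIs over 2278 barcodes, WT 1 held 16230216 over 4589 and WT 2 held 17293844 over 4815. After filters, 2257 cells of the deficient library, 4340 of WT 1 and 4667 of WT 2 were kept, with medians of 2824, 3384.5 and 3338 UMIs. The library pairs shared 13 to 30 barcodes. Cells were clustered without any integrin gene, and clusters were named by marker genes. Microglia-like cells, the resident macrophages of brain tissue, made up 2204 cells (97.7%) of the deficient library, 3908 (90.0%) of WT 1 and 4405 (94.4%) of WT 2. Border-associated macrophage-like cells, of the meninges and perivascular spaces, numbered 15, 74 and 67. Classical monocyte-like cells, the short-lived inflammatory blood monocytes, numbered 4, 43 and 30, and non-classical, vessel-patrolling ones 15, 10 and 12. Neutrophil-like cells numbered 19, 283 and 135. All 12 microglial markers had UMIs in the microglia-like cells of each library, summing to 38720 CPM (counts per 1e6 UMIs of the summed class) in the deficient library, 38520 in WT 1 and 40914 in WT 2. The libraries stood apart within the microglia: cluster 2 held 1678 of the deficient microglia-like cells but 35 of WT 1 and 102 of WT 2, whereas cluster 0 held 20, 635 and 1428 cells and cluster 1 held 25, 1067 and 826. Comparisons of microglia-like cells between genotypes therefore set largely different clusters side by side. Levels are given as CPM with exact Poisson 95% intervals, which cover counting error only.

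Microglia carried most UMIs of 6 of the 9 integrins. Over all libraries, microglia-like cells held 93.3% of Itgam UMIs, 89.3% of Itgb2, 95.2% of Itgb1, 97.9% of Itga6, 97.2% of Itgav and 96.9% of Itga9. They made up 93.4% of all kept cells, so the Itgam share was near their share of cells and the Itgb2 share below it. The other 3 genes came mainly from blood-derived cells. Itgb7 had 68.7% of its UMIs in classical monocyte-like cells, Itga4 had 42.9% there and 21.2% in border-associated macrophage-like cells, and Itgal had 53.9% in neutrophil-like and 26.8% in non-classical monocyte-like cells. Only 3.4% of Itgal UMIs lay in microglia-like cells although these made up at least 90.0% of the kept cells of each library.

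**Figure D1:**
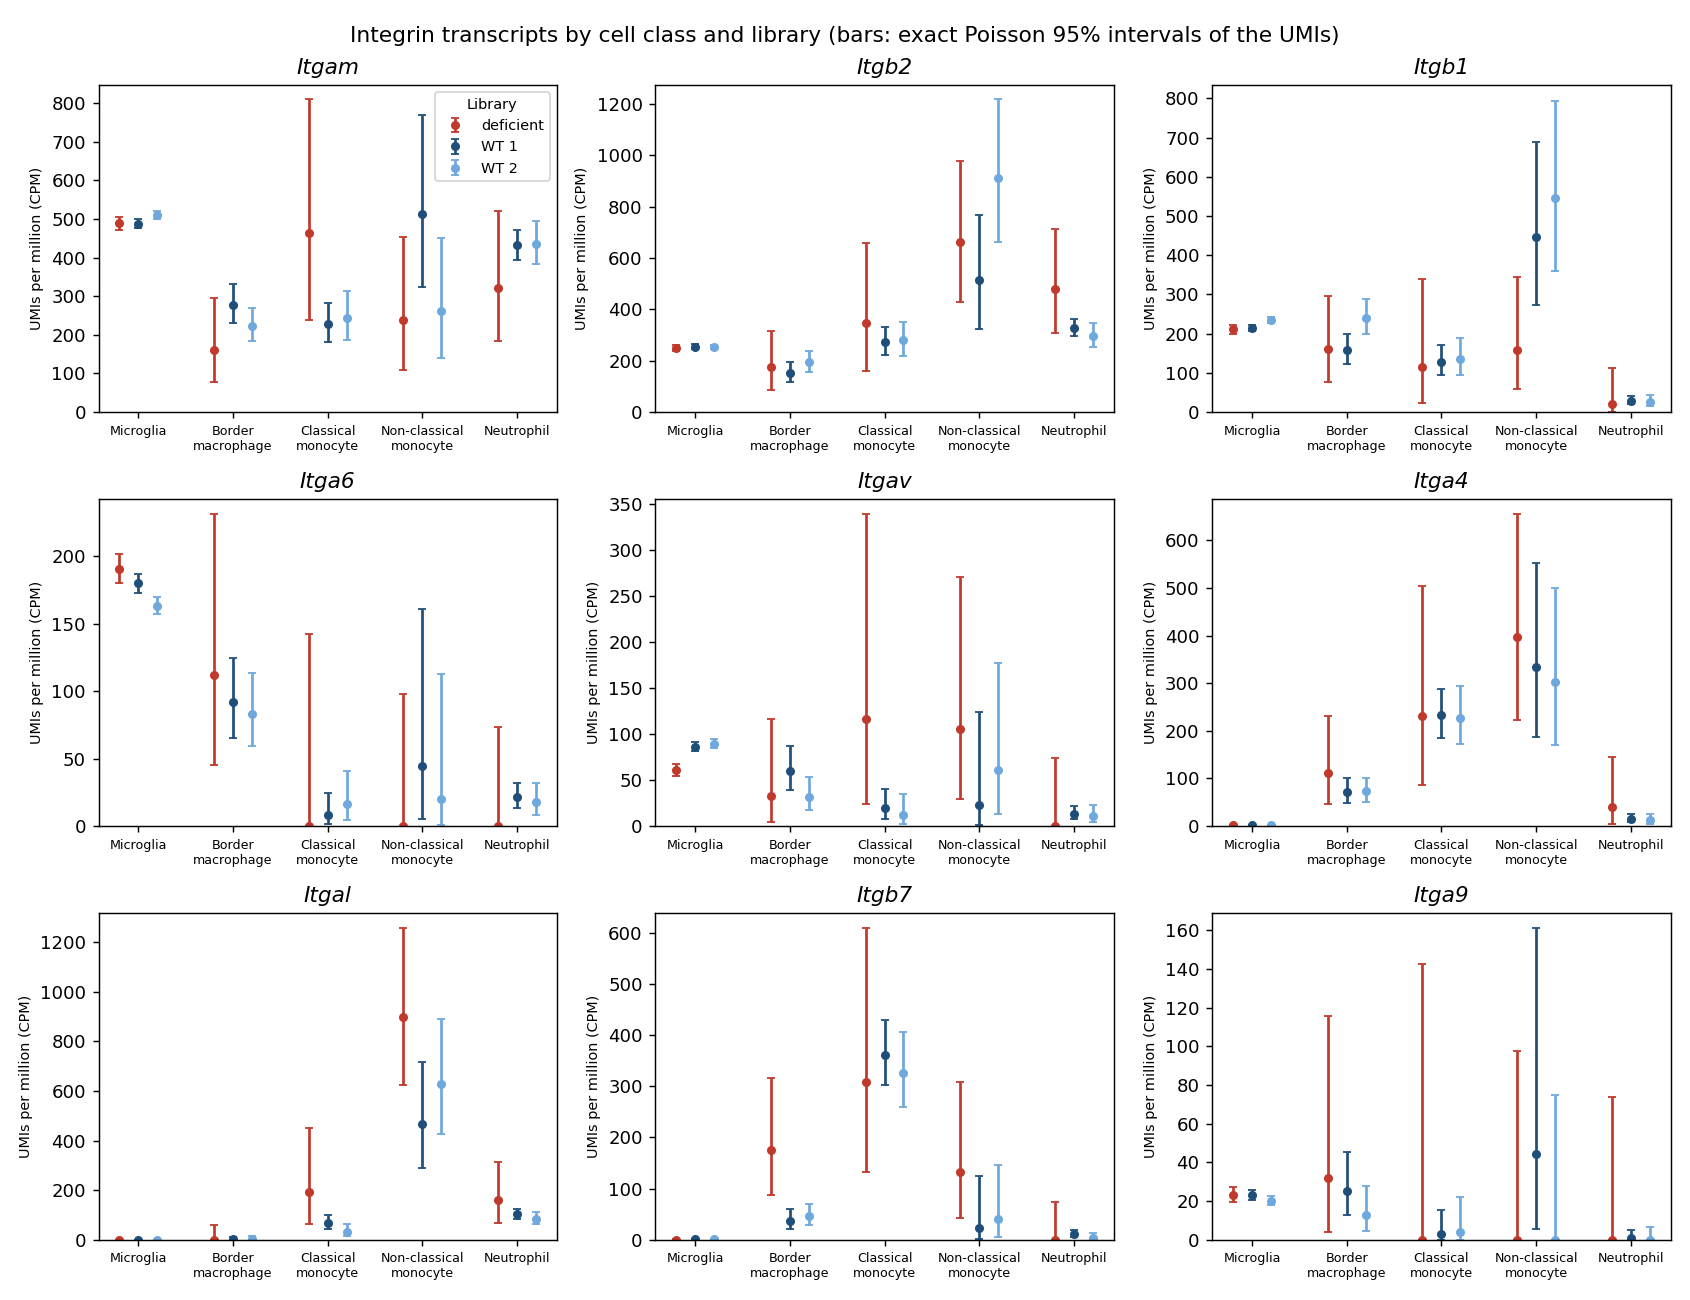
Level of each integrin (y axis, CPM, linear from 0) in 5 cell classes (x axis) of the deficient, WT 1 and WT 2 libraries, left to right within each class; points are summed class levels and bars exact Poisson 95% intervals. Itga6 is highest in microglia, Itgb7 in classical monocytes and Itgal in non-classical monocytes in every library, and the bars are wide for the deficient library outside the microglia, where it has 4 to 19 cells a class.

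Itgam, the gene of the sorting antigen, was at 488.7 CPM in microglia-like cells of the deficient library (3144 UMIs), 486.8 in WT 1 (6783 UMIs) and 510.1 in WT 2 (8017 UMIs). In neutrophil-like cells, which use CD11b to adhere and to take up opsonized particles, it was at 320.0 CPM (interval 183 to 520) in the deficient library, 432.5 in WT 1 and 436.1 in WT 2. In classical monocyte-like cells it was at 463.8 CPM (12 UMIs, interval 240 to 810) in the deficient library, 227.1 in WT 1 and 243.3 in WT 2. In both WT libraries the microglial level was above that of neutrophil-like cells, which was above those of classical monocyte-like and border-associated macrophage-like cells, and the intervals of these last overlapped each other. Border-associated macrophage-like cells had 160.3 CPM in the deficient library, 277.6 in WT 1 and 223.6 in WT 2. Non-classical monocyte-like cells had 238.1 CPM in the deficient library, 512.9 in WT 1 and 262.9 in WT 2, on 9, 23 and 13 UMIs, and lay above the microglial point value in WT 1, with overlapping intervals, and below it in WT 2.

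An Itgam UMI was found in 72.0% of microglia-like cells of the deficient library, 76.8% in WT 1 and 78.2% in WT 2, although every cell had passed a gate on its protein. With each cell thinned to 1000 UMIs the shares were 38.5%, 37.1% and 39.5%, with 45, 60 and 61 shallower cells left out, so the lower share of the deficient library as deposited was not seen at equal depth. Median depths of microglia-like cells were 2825.5, 3374 and 3325 UMIs. At 1000 UMIs the share was 20%, 35.1% and 39.8% in neutrophil-like cells and 13.3%, 25.7% and 19.4% in border-associated macrophage-like cells. No class of this sort should lack Itgam, so no background share of it can be read from these cells.

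**Figure D2:**
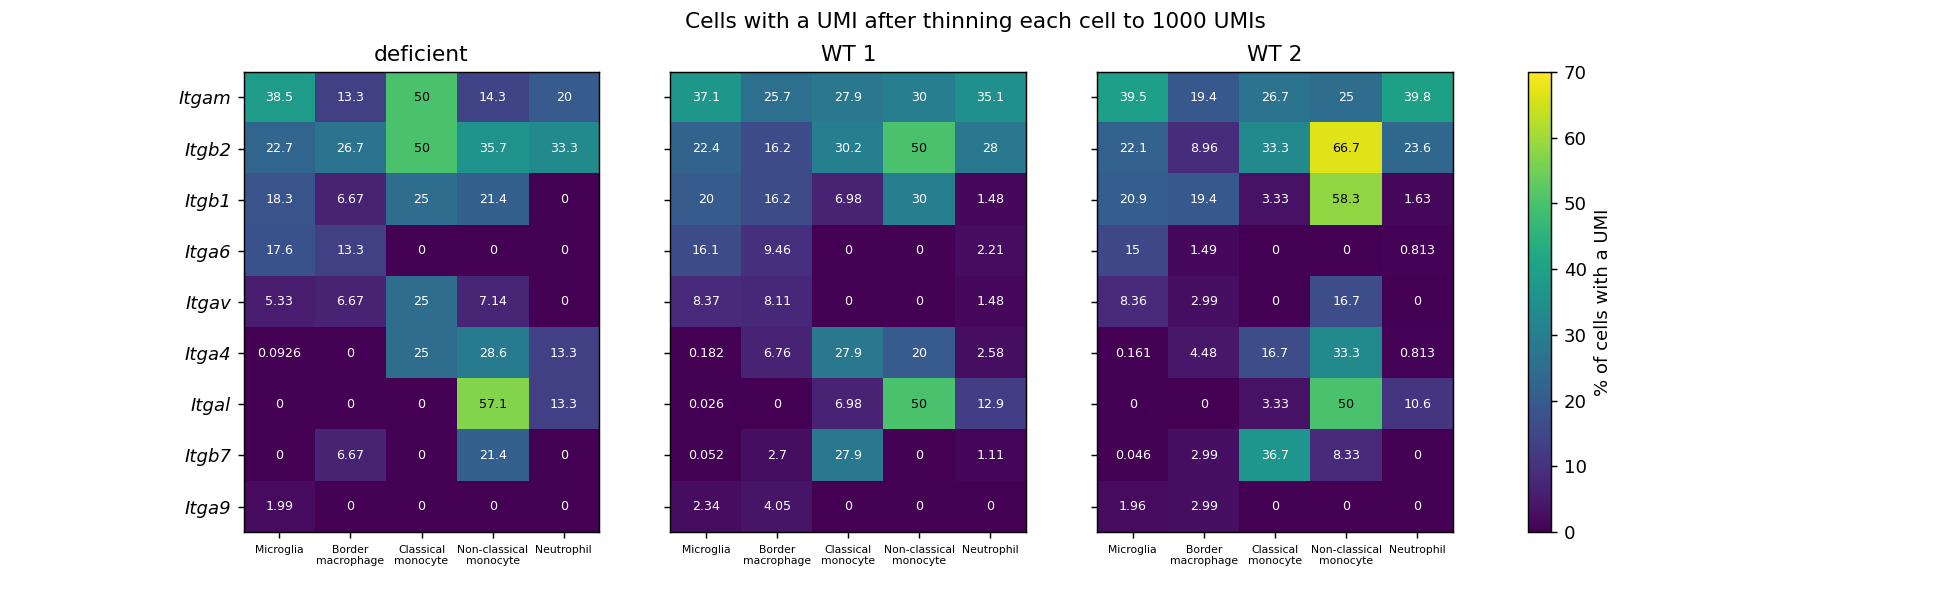
Share of cells with at least 1 UMI (colour and printed value, % of cells) for each integrin (rows) and cell class (columns) after thinning each cell to 1000 UMIs, with 1 panel each for the deficient, WT 1 and WT 2 libraries. Itgam is found in 38.5%, 37.1% and 39.5% of microglia, while Itgal is found in 57.1%, 50% and 50% of non-classical monocytes and in almost no microglia; the classical monocytes of the deficient library are 4 cells.

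Itgb2, the beta chain shared by CD11b and LFA-1, was highest in non-classical monocyte-like cells, at 661.5 CPM in the deficient library, 512.9 in WT 1 and 910.0 in WT 2. These values were above the microglia-like levels of 248.7, 255.1 and 252.5 CPM in all 3 libraries, with intervals that did not overlap. The microglial intervals of the 3 libraries overlap each other. Neutrophil-like cells had 480.0 CPM (24 UMIs) in the deficient library, 327.0 in WT 1 and 298.3 in WT 2, and classical monocyte-like cells had 347.9 (9 UMIs), 271.9 and 279.2 CPM. Border-associated macrophage-like cells were lowest in both WT libraries, at 153.7 and 193.8 CPM, with 176.3 CPM in the deficient library.

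Itgal, the alpha chain of LFA-1, was at 899.6 CPM in non-classical monocyte-like cells of the deficient library (34 UMIs, interval 623 to 1257), 468.3 in WT 1 (21 UMIs, 290 to 716) and 626.9 in WT 2 (31 UMIs, 426 to 890). These intervals overlap, and the class was the highest for Itgal in every library. Neutrophil-like cells were second in both WT libraries and had 160.0 CPM (8 UMIs) in the deficient library, 102.8 in WT 1 and 85.5 in WT 2. Classical monocyte-like cells had 193.3 CPM on 5 UMIs in the deficient library, above its neutrophil-like value with an overlapping interval, and 67.3 in WT 1 and 31.9 in WT 2, below neutrophil-like cells in each WT library, with overlapping intervals in WT 1. Microglia-like cells had 0.3, 0.4 and 0.3 CPM, from 2, 5 and 4 UMIs, and 0.0907%, 0.128% and 0.0908% of them held an Itgal UMI. Against microglia-like cells the non-classical level was 1305-fold higher in WT 1 and 2463-fold higher in WT 2, each on 4 or 5 microglial UMIs. Of non-classical cells with an Itgal UMI, 13 of 13 (deficient), 6 of 7 (WT 1) and 9 of 10 (WT 2) also held Itgb2. Among all non-classical cells, 15 of 15, 8 of 10 and 11 of 12 held an Itgb2 UMI. Both chains of LFA-1 were thus seen in the same cells, with Itgb2 about as common as in the whole class.

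Itgb1, the most widely paired beta chain, was at 210.6 CPM in microglia-like cells of the deficient library (1355 UMIs), 215.1 in WT 1 (2997 UMIs) and 235.1 in WT 2 (3695 UMIs). In the WT libraries the level was higher in non-classical monocyte-like cells, at 446.0 and 546.0 CPM, whereas the deficient library had 158.8 CPM there on 6 UMIs (interval 58 to 346). That interval ends below the WT 2 interval of 360 to 794 and overlaps that of WT 1. The make-up of this class of 15, 10 and 12 cells differed along with these values and with those of Itgam. Neutrophil markers summed to 0 CPM in the deficient library, which lists 11 of the 12, 7068 in WT 1 and 18140 in WT 2. Their medians were 0, 5.5 and 3 UMIs per cell, and marker UMIs of each cell named 0, 1 and 1 of the cells neutrophils. The WT sums were therefore not spread evenly over the cells of the class. Microglial markers summed to 900, 8652 and 4247 CPM. Classical monocyte markers went the other way, at 6747, 3412 and 2932 CPM, with medians of 10, 10.5 and 6.5 UMIs per cell. The class's own markers summed to 5636, 5530 and 6087 CPM. Marker UMIs of each cell named 5 of the 15, 2 of the 10 and 1 of the 12 cells classical monocytes. Among the cells that marker UMIs of each cell named non-classical monocytes, Itgb1 was at 182 CPM on 3 UMIs in the deficient library, 519 in WT 1 and 588 in WT 2, and the part of other cells' RNA was not tested. Neutrophil-like cells were lowest in all 3 libraries, with 1 UMI in the deficient library and levels of 29.2 CPM in WT 1 and 26.2 in WT 2, and the WT values are 0.136 and 0.111 times the microglial ones. Border-associated macrophage-like cells had 160.3 CPM in the deficient library, 158.3 in WT 1 and 240.7 in WT 2, and classical monocyte-like cells 116.0, 128.9 and 135.6 CPM.

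Itga6, the laminin-binding alpha chain, was at 190.7 CPM in microglia-like cells of the deficient library, 179.9 in WT 1 and 163.3 in WT 2. Border-associated macrophage-like cells came second in every library, with 112.2, 91.8 and 83.1 CPM, and the WT ratios to microglia were 0.510 and 0.509. The class also held microglial markers, at 2132 CPM in the deficient library, 13237 in WT 1 and 14120 in WT 2. Its own markers, of which the libraries list 7, 11 and 12, summed to 2901, 4127 and 3595 CPM. Marker UMIs of each cell named 4 of its 15, 29 of its 74 and 28 of its 67 cells microglia. In the cells they named border-associated macrophages, Itga6 was at 166 CPM on 3 UMIs in the deficient library, 112 in WT 1 and 88.0 in WT 2. Among blood-derived cells the level was low: neutrophil-like cells had 21.3 CPM in WT 1 and 17.4 in WT 2, and classical monocyte-like cells 8.4 and 16.0. The deficient library had 0 UMIs in these classes, which its few cells allow at levels of up to 73.8 CPM in neutrophil-like and 143 CPM in classical monocyte-like cells (upper limits of the intervals), so its levels could not be told from those of WT at this depth.

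Itgav, the alpha chain of the RGD-binding receptors, was at 60.6 CPM in microglia-like cells of the deficient library (390 UMIs, interval 55 to 67), 86.1 in WT 1 (1200 UMIs, 81 to 91) and 89.5 in WT 2 (1406 UMIs, 85 to 94). The deficient value lay below both WT values and the intervals did not meet. Its UMIs were found in 16.2% of these cells in the deficient library, 24.9% in WT 1 and 25.8% in WT 2, and in 5.33%, 8.37% and 8.36% after thinning to 1000 UMIs. Neutrophil-like cells had 0 UMIs in the deficient library, 13.3 CPM in WT 1 and 10.5 in WT 2, and border-associated macrophage-like cells had 32.1, 59.6 and 31.9 CPM. In both monocyte classes the deficient point value was the highest of the 3: classical monocyte-like cells had 116.0 CPM in the deficient library on 3 UMIs, 19.6 in WT 1 on 7 and 11.97 in WT 2 on 3, and non-classical ones 105.8 CPM on 4 UMIs, 22.3 on 1 and 60.7 on 3, with intervals that overlap.

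Itga9, the alpha chain of a tenascin receptor, was at 23.2 CPM in microglia-like cells of the deficient library, 23.0 in WT 1 and 20.2 in WT 2, and 6.40%, 7.68% and 6.81% of those cells held a UMI. Outside the microglia it was seen mainly in border-associated macrophage-like cells, with 2, 11 and 6 UMIs, and at 25.2 and 12.8 CPM in the WT libraries these did not differ from microglia beyond their intervals.

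Itga4 and Itgb7, the 2 chains of the MAdCAM1 receptor, were found in monocytes and were rare in microglia. Itga4 was at 231.9 CPM in classical monocyte-like cells of the deficient library (6 UMIs), 232.7 in WT 1 (83 UMIs) and 227.4 in WT 2 (57 UMIs). In non-classical monocyte-like cells it was at 396.9, 334.5 and 303.3 CPM, each from 15 UMIs, with intervals that overlap those of the classical class. Border-associated macrophage-like cells had 112.2 CPM in the deficient library, 71.1 in WT 1 and 72.4 in WT 2, and microglia-like cells 1.2, 1.2 and 1.6 CPM. The classical monocyte level was therefore 187-fold, 191-fold and 143-fold that of microglia, the lowest of the 5 classes in each library.

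Itgb7 was at 309.2 CPM in classical monocyte-like cells of the deficient library (8 UMIs), 361.6 in WT 1 (129 UMIs) and 327.1 in WT 2 (82 UMIs). In the same cells 90.7% in WT 1 and 93.3% in WT 2 held an Itgb7 UMI, against 0.409% and 0.227% of the microglia-like cells of those libraries, at median depths of 7359 and 7735.5 UMIs in the monocytes and 3374 and 3325 in the microglia. After thinning to 1000 UMIs the shares were 27.9% and 36.7% in the monocytes and 0.052% and 0.046% in the microglia. Non-classical monocyte-like cells had 132.3 CPM on 5 UMIs in the deficient library, 22.3 on 1 UMI in WT 1 and 40.4 on 2 UMIs in WT 2, and in each WT library these intervals lay wholly below those of the classical class. The deficient library's non-classical class also had the highest level of classical monocyte markers, as given above, and their part in this value was not tested. Neutrophil-like cells had 0 UMIs in the deficient library, 11.5 CPM in WT 1 and 3.5 CPM in WT 2.

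The partner chains of Itga4 were read cell by cell in the monocyte classes. Of classical monocyte-like cells with an Itga4 UMI, 35 of 39 in WT 1 and 20 of 22 in WT 2 held an Itgb7 UMI. An Itgb1 UMI was held by 23 of 39 and 15 of 22. Among all cells of this class, Itgb7 was found in 39 of 43 and 28 of 30. Itgb1 was found in 25 of 43 and 19 of 30, so the shares with Itga4 were near those of the class. In non-classical cells with an Itga4 UMI, Itgb7 was found in 3 of 9 cells of the deficient library, 1 of 7 of WT 1 and 2 of 10 of WT 2, and Itgb1 in 4 of 9, 5 of 7 and 8 of 10. Among all non-classical cells, Itgb7 was found in 4 of 15, 1 of 10 and 2 of 12, and Itgb1 in 4 of 15, 8 of 10 and 10 of 12. The deficient library had 2 classical cells with Itga4, of which 1 held Itgb7. These are shares of cells at their deposited depth, which was 7359 and 7735.5 UMIs for the classical and 4302 and 3453 UMIs for the non-classical cells of WT 1 and WT 2, and the difference between the classes was not tested.

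Itgb7 in the border-associated macrophage-like class came mainly from cells with few macrophage markers. In the 46 cells of that class, over all libraries, that held fewer than 3 of the 12 macrophage markers, 10 cells carried 45 Itgb7 UMIs (160 CPM), whereas the 110 cells with 3 or more held 4 UMIs (5.83 CPM). Itga4 was at 142 CPM in the 46 cells and at 46.6 CPM in the 110. Markers of conventional dendritic cells summed to 1318 CPM in the 46 cells and 64.1 CPM in the 110, and markers of classical monocytes to 1041 and 339 CPM. The split was made after the values were seen. In the deficient library, 9 of its 11 Itgb7 UMIs in this class came from 1 cell, and the class was at 176.3 CPM there, against 36.7 in WT 1 and 46.9 in WT 2.

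Within microglia-like cells the deficient library was compared with the 2 WT libraries on summed counts (edgeR's quasi-likelihood test with Benjamini-Hochberg adjustment over all 11859 genes tested, deficient minus WT). Of the 9 integrins, 8 could be tested, since Itgal had too few UMIs to pass the filter on low counts. One of the 8, Itgav, fell, none rose and 7 did not pass, beside 8.16% of all genes tested that were called, 6.55% lower and 1.61% higher. The median log2 fold change of the 8 was -0.05, and that of all genes tested 0.00. Itgav fell by 0.53 on the log2 scale (SE 0.09, adjusted p = 0.00178), with 60.9 CPM after TMM scaling in the deficient library against 85.6 in WT 1 and 89.8 in WT 2. With DESeq2 the fall was 0.52 and its adjusted p 0.0632, which ends the call. Against WT 1 alone the log2 ratio was -0.50 and against WT 2 alone -0.55.

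The sorting antigen did not pass: Itgam differed by -0.02 on the log2 scale, deficient minus WT (SE 0.10, adjusted p = 0.939 by edgeR), and its partner Itgb2 by -0.02 (SE 0.09, adjusted p = 0.930). Values for Itgb1 were -0.09 (SE 0.10, adjusted p = 0.688), for Itga6 0.16 (SE 0.09, adjusted p = 0.389) and for Itga9 0.11 (SE 0.14, adjusted p = 0.724). Itga4 at -0.18 (SE 0.56) and Itgb7 at -1.46 (SE 0.94, adjusted p = 0.436) rest on 50 and 28 UMIs in microglia-like cells of all libraries. With microglia named by the marker UMIs of each cell in place of clusters, Itgb7 fell by 3.05 and passed (adjusted p = 0.0208 by edgeR). That naming counted as microglia 4, 29 and 28 cells of the border-associated macrophage-like cluster in the deficient library, WT 1 and WT 2. Itgb7 in that cluster was at 176.3, 36.7 and 46.9 CPM, and the part of these cells in the call was not tested. A p that misses the threshold does not show that these levels were alike. In the microglia-like cells named by clusters the neutrophil markers summed to 49.6 CPM in the deficient library, 1209 in WT 1 and 633 in WT 2. The deficient library lists 11 of these 12 markers. Itgav was at most 13.3 CPM in neutrophil-like cells. The part of other cells' RNA in the comparison was not tested.

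**Figure D3:**
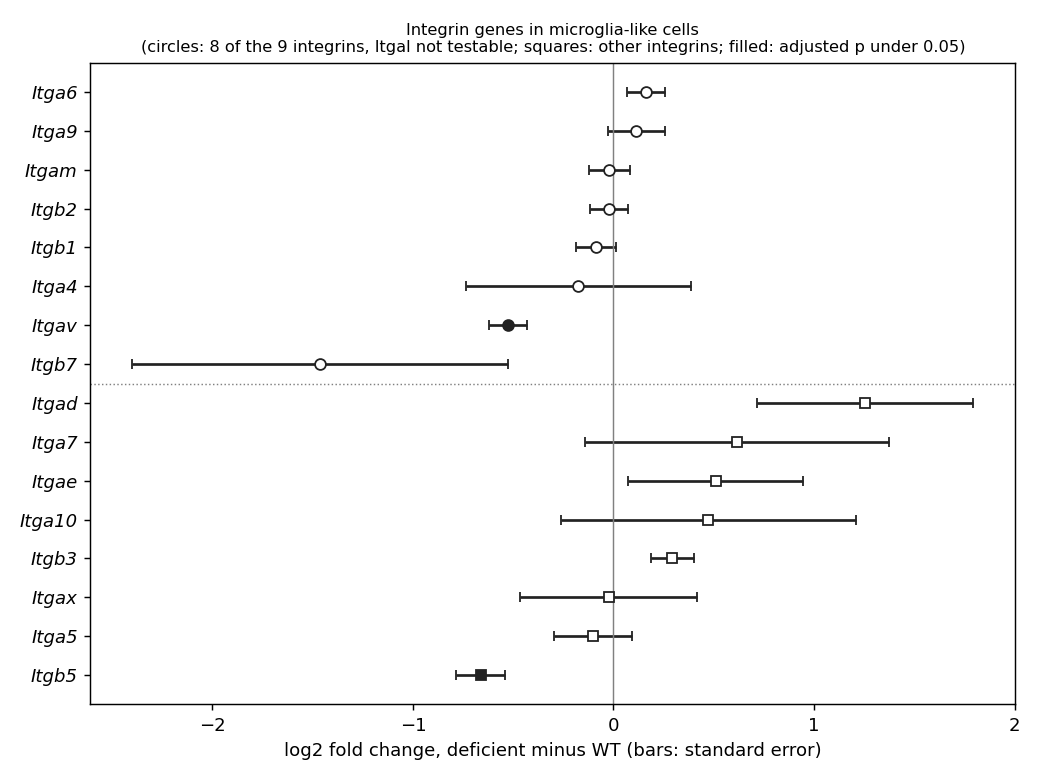
Log2 fold change in microglia-like cells, deficient minus WT (x axis; bars are standard errors of edgeR's fit), for the 8 tested integrins of the list (circles, upper part) and 8 other integrin genes (squares, lower part); filled symbols have an adjusted p under 0.05. Itgav at -0.53 and Itgb5 at -0.66 are filled, and both lie left of 0.

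Of the 17 further integrin subunit genes, 8 were listed in all 3 tables and tested, and 5 were listed in none. One fell, none rose and 7 missed the threshold, beside 6.55% of all genes tested that were called lower and 1.61% higher. Their median log2 fold change was 0.38, and the 4 genes above it, Itga7, Itga10, Itgad and Itgae, were at 2.50 CPM or less in every library. Itgb5, whose chain pairs only with that of Itgav, was at 298.2 CPM after TMM scaling in the deficient library, 517.5 in WT 1 and 426.3 in WT 2. It fell by 0.66 on the log2 scale (SE 0.12, adjusted p = 0.00235 by edgeR), and with DESeq2 its adjusted p was 0.112. Itgb3, another partner of the Itgav chain, had 106.2 CPM in the deficient library, 94.1 in WT 1 and 79.3 in WT 2, above both WT libraries, with a log2 fold change of 0.29 that did not pass (SE 0.11, adjusted p = 0.122). Itga5, a fibronectin receptor chain and the third most abundant of these genes in microglia, had 11.1, 11.1 and 12.7 CPM and did not pass (log2 fold change -0.10, adjusted p = 0.833). Itga1, a collagen receptor chain, was not listed for the deficient library and was at 61.7 and 31.9 CPM in classical monocyte-like cells of WT 1 and WT 2.

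The Itgav difference was looked at within microglial clusters, since the libraries filled different ones. In 7 clusters with at least 30 cells of every library, the deficient value was below both WT values in 6 and between them in 1. In cluster 2, which held most deficient cells, Itgav was at 58.7 CPM in the deficient library, 119.7 in WT 1 (11 UMIs) and 89.2 in WT 2 (27 UMIs). In cluster 4, led by the chemokine and cytokine genes Ccl4, Ccl3 and Tnf, it was at 69.1, 89.0 and 78.1 CPM, and in cluster 9, led by interferon-induced Ifit genes, at 44.5, 92.0 and 80.6 CPM. Only in cluster 3 did the deficient value, 83.7 CPM, lie between those of WT 1 (81.3) and WT 2 (86.0). In each of the 7 clusters the Itgav interval of the deficient library overlapped those of both WT libraries. For Itgam, Itgb2, Itgb1, Itga6 and Itga9 both directions occurred: the deficient library was below both WT libraries in 3 clusters and above in 1 for Itgam, below in 3 and above in 2 for Itgb2, below in 2 and above in 3 for Itgb1, below in 2 and above in 4 for Itga6, and below in 3 and above in 2 for Itga9. Among the 3 integrins rare in microglia, it was below in 3 and above in 0 for Itgb7, above in 3 and below in 0 for Itga4, and between or equal in all 7 for Itgal. The 3 Itgb7 clusters (3, 5 and 6) held 0 UMIs in the deficient library and 1 or 2 in each WT library. In the 3 Itga4 clusters (2, 3 and 5) the deficient library held 5, 1 and 1 UMIs. With so few UMIs neither count shows a direction.

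**Figure D4:**
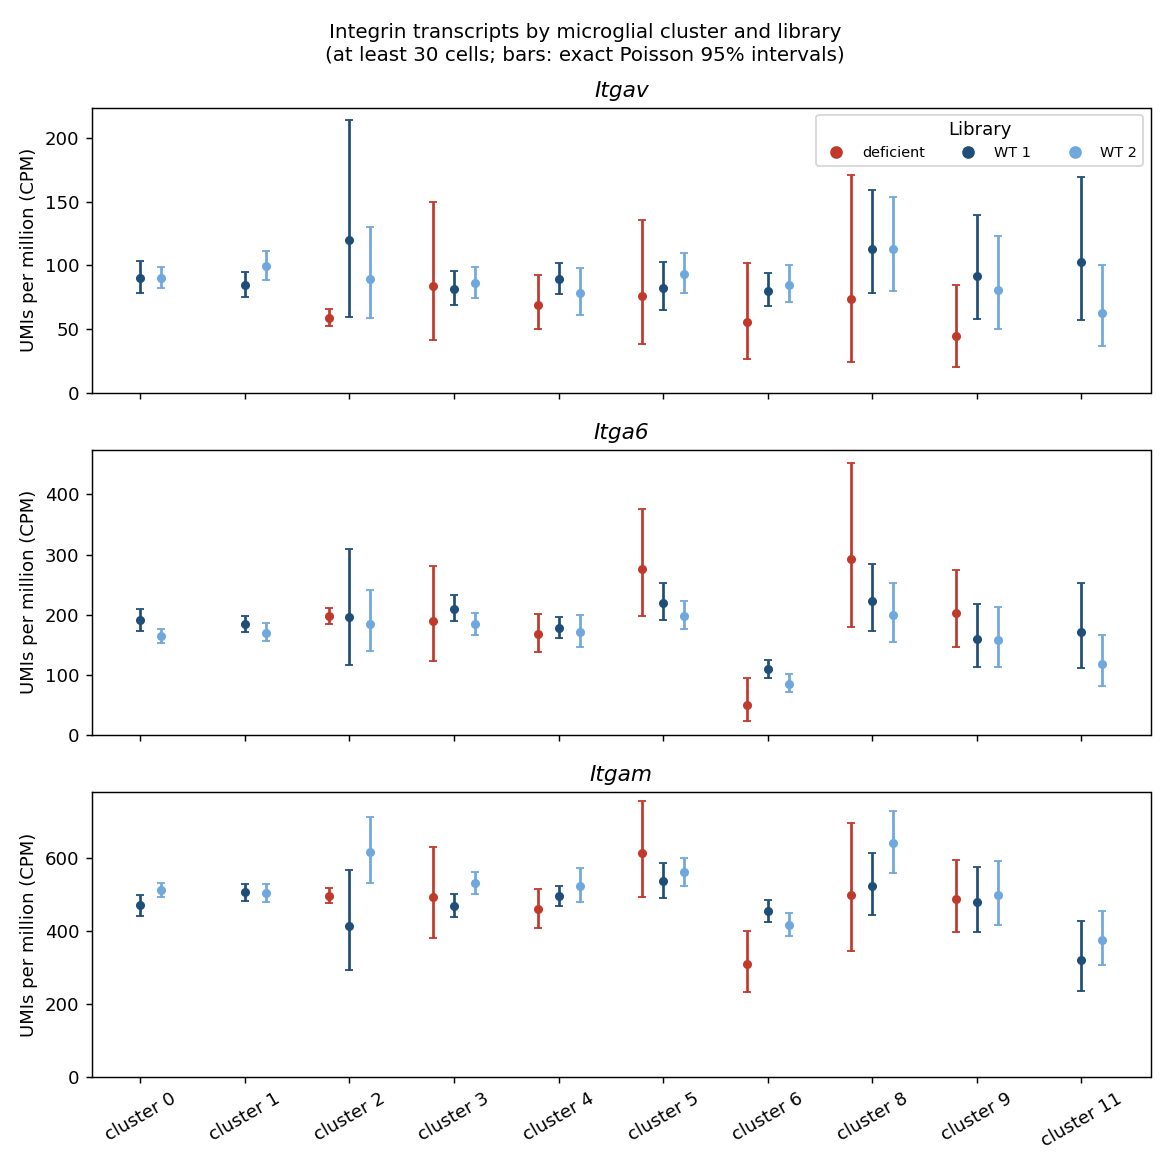
Level of Itgav, Itga6 and Itgam (panels from top to bottom; y axis, CPM from 0) in the microglial clusters (x axis) for the deficient, WT 1 and WT 2 libraries, left to right within a cluster, where a library has at least 30 cells; bars are exact Poisson 95% intervals. Itgav in the deficient library lies below both WT libraries in 6 of 7 clusters, and Itga6 is low in cluster 6 in every library.

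Among the microglial clusters, Itga6 stood lowest in cluster 6. In that cluster, led by the immediate-early genes Klf4, Fosb, Atf3 and Egr1, Itga6 was at 49.7 CPM in the deficient library, 109.0 in WT 1 and 85.3 in WT 2. In the other clusters with all libraries it was between 157 and 293 CPM, and in cluster 11 it was at 171.1 CPM in WT 1 and 118.0 in WT 2. Itgam was at 309.2, 454.8 and 417.5 CPM in cluster 6, the first, on 56 UMIs, being the lowest among the deficient library's 7 clusters. In WT 1 its interval of 425 to 486 held the values of clusters 0 (470.9) and 3 (470.3), and cluster 2 was lower, at 413.5 CPM. In cluster 11, led by Lpl and Cst7, genes known from disease-associated microglia, Itgam was at 321.7 CPM in WT 1 and 376.0 in WT 2, and the deficient library had only 25 cells. Itgb2 was at 265.5 CPM in the deficient library, 300.6 in WT 1 and 326.4 in WT 2 in the chemokine-rich cluster 4, the second value being the highest of WT 1's clusters. Clusters were drawn from these same cells, without integrin genes, so these are descriptions with no test.

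Integrins change between a bent resting form and an extended binding form, driven from inside the cell by talins, kindlins and the GTPase Rap1 with its adaptors. Of 34 genes for such activators and cytoplasmic partners, 31 were tested in microglia-like cells. One rose, 2 fell and 28 missed the threshold, beside 8.16% of all genes tested that were called, and the median of the 31 was -0.03 on the log2 scale. Rap1b, one of the Rap1 GTPase genes, was at 198.8 CPM in the deficient library, 457.6 in WT 1 and 493.9 in WT 2, and fell by 1.26 on the log2 scale (SE 0.11, adjusted p = 1.56e-06 by edgeR). Fyb, the adaptor ADAP that links signalling to integrin activation in T cells, was at 847.7, 533.8 and 518.3 CPM and rose by 0.69 (SE 0.10, adjusted p = 0.000321). The kinase gene Src was at 8.9, 14.8 and 16.5 CPM and fell by 0.81 (SE 0.19, adjusted p = 0.0138), a call lost with DESeq2 (adjusted p = 0.376), with limma voom (0.0583) and with all retained cells (0.0813). Rap1b and Fyb had an adjusted p under 0.05 in all 10 alternative settings. Apbb1ip, which encodes the Rap1 effector RIAM, and the Src-family kinase gene Lyn are abundant and did not pass, at log2 fold changes of -0.01 and -0.10.

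Of 30 genes for integrin ligands and counter-receptors, 13 were tested. One rose, 2 fell and 10 missed the threshold, beside the same 8.16% of all genes tested, and the median of the 13 was -0.15 on the log2 scale. Jam3, a junctional adhesion molecule that binds CD11b/CD18, was at 37.3 CPM in the deficient library, 25.9 in WT 1 and 24.7 in WT 2, and rose by 0.56 (SE 0.12, adjusted p = 0.00779 by edgeR). Tgfb1, whose latent product is held and released through the Itgav-containing receptors, was at 465.0, 623.7 and 620.3 CPM and fell by 0.42 (SE 0.10, adjusted p = 0.0203). Spp1, encoding osteopontin, was at 3.9, 7.4 and 10.7 CPM and fell by 1.22 (SE 0.32, adjusted p = 0.0293). Each call was lost in at least 1 alternative setting: Jam3 with DESeq2 (adjusted p = 0.311), Spp1 with DESeq2 (0.289), limma voom (0.142) and the strict cell filter (0.0505), and Tgfb1 with all retained cells (0.0819). F11r and Icam1, which encode ligands of LFA-1, had log2 fold changes of -0.13 and -0.15 and did not pass.

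The genes whose levels ran most alike were found over 33 sums of a cluster in a library with at least 30 cells, among 5953 genes, as Pearson's r of log2(CPM + 1). These sums share libraries and come from 10 microglial clusters, 1 neutrophil, 1 border macrophage and 1 classical monocyte cluster, and r is given as a description. Non-classical monocytes, the class highest for Itgb2 and Itgal, had too few cells per library and are not among the sums. Itga6 ran with Pla2g15 (r = 0.98), P2ry13 (0.98), a microglial purinergic receptor gene, and Scoc (0.98). Itgb7 ran with Nr4a2 (0.95), Sirpb1c (0.95) and Napsa (0.94), and Itga4 also with Sirpb1c (0.90), then Mndal (0.90) and Emilin2 (0.89). Itgb1 was closest to Asah1 (0.96), Laptm4a (0.95) and Nagpa (0.95), Itgav to Plxdc2 (0.95), Cxxc5 (0.94) and St6galnac4 (0.94), and Itga9 to Hpgd (0.95), Foxn3 (0.95) and Cyth4 (0.94). Itgal ran with Sem1 (0.94), Prdx5 (0.93) and Anxa1 (0.92), while Itgam was closest to Smpd5 (0.87), Ccng2 (0.84) and Csf3r (0.83). Itgb2, which all classes carried, had no close match over these sums, its highest values being 0.56 for Abtb1, 0.55 for Sqor and 0.53 for Lasp1.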

How the data were processed

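The authors deposited UMI counts, not normalized, of genes by barcodes in 1 table for each of 3 libraries. Per the labels' protocols, CD11b+ CD45+ cells were sorted and the 10x 3′ kit v2 was used. The submitters' processing notes name Cell Ranger 3.0, Seurat 2.2 and mm10, and no source used here gives filters of the authors. Genes missing from a table are not measured at 0, and no source used here says why they are missing.

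Of 11682 barcodes, 11264 had 500 or more UMIs, 200 or more genes and no more than 10% mitochondrial UMIs, and were used. Scrublet called 29 cells (28 of them in the deficient library, 0 in WT 1), too few to have worked, so doublets can remain and the calls were kept. The main clustering used 2000 variable genes without integrin, MHC class II and sex-linked genes, 30 components and the Leiden method of scanpy 1.11.5 and leidenalg 0.10.2, with resolution 1. A cluster was named with at least 3 markers of a class in 10% of its cells and a marker level at least 4-fold that of other cells, or as microglia at 0.5 of the median cell's microglial share. It stayed unnamed where markers of a different class outnumbered its own among its 10 leading genes, a marker found at up to 2 times the median share of cells over clusters not being counted. This exception was set after the clusters were seen. Clusters 15 and 16, of 21 and 19 cells, had no name and were left out. Summed counts of microglia-like cells were tested with edgeR 4.0.16 (TMM, filterByExpr, quasi-likelihood test, 1 residual degree of freedom, given by the 2 WT libraries; the deficient library is taken to vary like WT), with DESeq2 1.42.0 and limma 3.58.1 as alternatives under R 4.3.3. On simulated counts for 11859 genes, 100%, 87.2%, 98% and 100% of genes changed by log2 folds of -2, -1, 1 and 2 were called, and 4.18% of calls were false. The simulation draws all libraries from 1 model, so it does not cover a library that stands apart.

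Named genes were the 9 integrins whatever their values. Of the other integrins, the activators and the ligands, the 3 with the highest mean CPM and those that passed the test were named, and for each integrin the 3 genes most like it. Itga1, which was not tested, and Itga7, Itga10, Itgad and Itgae were named outside this rule. The members and lists were chosen with earlier results of these data known. Intervals are exact Poisson (levels) and exact Clopper-Pearson (shares), at 95%.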

Additional observations from a re-analysis of the deposited data

Results flagged for a closer look

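The Itgb2 point value of the deficient library lay above both WT values in 2 cell classes and below both in microglia-like cells, and the difference between classes was not tested. In classical monocyte-like cells it was at 348 CPM in the deficient library, on 9 UMIs from 4 cells (interval 159 to 660), against 271.9 in WT 1 and 279.2 in WT 2. In neutrophil-like cells it was at 480.0 CPM in the deficient library, on 24 UMIs from 19 cells (interval 308 to 714), against 327.0 in WT 1 (295 to 362) and 298.3 in WT 2 (255 to 346). In microglia-like cells the deficient library, at 248.7 CPM, lay below both WT libraries, at 255.1 and 252.5 CPM. The intervals of the deficient library overlap those of both WT libraries in all 3 classes, and in microglia-like cells the difference did not pass (adjusted p = 0.930 by edgeR).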

How the results depend on the processing

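No paired analysis was possible because there is 1 deficient library. DESeq2 called 486 genes and 0 of the 9 integrins, of which 1 (Itgav) had an unadjusted p under 0.05, against 968 genes and 1 integrin by edgeR and 784 genes and 1 integrin by limma voom. DESeq2 gave no adjusted p for Itga4 and Itgb7. Classes by marker UMIs of each cell gave 2 integrins by edgeR, the second being Itgb7 at -3.05 (adjusted p = 0.0208). These classes count part of the border-associated macrophage-like cluster as microglia. Counting every marker against a name, an alternative chosen after seeing the data that drops WT-rich cluster 0, gave 1571 genes. Itgav ranged over the 10 settings from -0.53 to -0.45 with adjusted p from 5.26e-05 to 0.0632, and its log2 ratio without 1 WT library was -0.55 or -0.50. The counts of genes have no value without a WT library, since no residual degree of freedom is left. Of 486 levels by class, 453 stayed within the interval of the main setting and 33 moved. Classes by marker UMIs moved 19 of 135, and resolution 0.5, where monocytes merged with border macrophages, moved 13 of 81. The strict cell filter moved 1 of 135 and leaving out Scrublet calls 0 of 135. These last 2 settings keep nearly the same cells, so they could move little. The wide intervals of classes with few UMIs also leave room for unseen shifts. Of 30 shares of Itgam, 6 moved, all on thinning to 2000 UMIs. Outside the microglia, 4 to 19 cells per class in the deficient library limit every value.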
